A study of Mus musculus with 16 samples.

Results

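The genes described here are 33 targets and regulators of p53, chosen as a named list and measured in the mouse pancreatic beta-cell line R7T1. Members were found by gene symbol, and a gene was represented by its probe set with the highest mean level among those that reached log2 4 on at least 2 arrays. Of the 33 members, 30 had a probe set in the table analysed and 26 passed that level, out of 10610 genes tested. Dram1, Fas, Tap1 and Tnfrsf10b stayed below log2 4 on all 16 arrays, with values between 1.76 and 3.76, and were not tested. Bax, Gdf15 and Trp53, which encodes p53 itself, were not analysed here.

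The study treated the cells with DMSO, the vehicle, with the compound labelled BayK8644(2a), with exendin-4, or with both agents together, and took RNA after 0.5, 2, 6 and 24 h. Calcium entry through L-type channels is prolonged by BayK8644, a dihydropyridine, while the peptide exendin-4 acts on the GLP-1 receptor. What 2a stands for is left unsaid in the labels, and doses are not given in the sources used here. Each combination of treatment and time had 1 array, which made 16 in all and left none with a replicate. R7T1 cells are known as a conditionally immortalised line that carries a doxycycline-controlled SV40 large T antigen, a viral protein that binds p53. All groups share that transgene, and the labels do not say whether it was switched on.

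p53 is a transcription factor that is kept scarce by Mdm2, a ubiquitin ligase that marks it for destruction, and Mdm2 is itself a p53 target, which closes a feedback loop. When p53 accumulates, it binds a pair of like decamers in the DNA of its targets. Among these are Cdkn1a, whose product p21 stops the cell cycle, mediators of apoptosis such as Bbc3 (PUMA), and DNA repair genes. Through p21 and the DREAM repressor complex the pathway also lowers many genes of cell division. In beta cells it is known as a brake on replication and a route to cell death under stress.

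Promoter sequences of 4 members are shown because these genes differed with BayK8644, with both agents or with culture time in the results that follow, and because a match to a searched motif lies in each. The sequences are the 250 bases before the RefSeq transcription start (GRCm38.p6), read 5′ to 3′ on the gene's strand. Capitals mark a match to the p53 consensus site in Cdkn1a, to TGACGTCA, the palindromic cAMP response element, in Btg2 and Plk2, and to its shorter form TGACG in Plk3.
Cdkn1a: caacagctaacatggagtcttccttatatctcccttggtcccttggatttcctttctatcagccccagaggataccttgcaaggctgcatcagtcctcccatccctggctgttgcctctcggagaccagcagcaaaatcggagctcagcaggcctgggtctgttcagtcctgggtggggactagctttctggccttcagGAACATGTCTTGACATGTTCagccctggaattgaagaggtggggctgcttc
Btg2: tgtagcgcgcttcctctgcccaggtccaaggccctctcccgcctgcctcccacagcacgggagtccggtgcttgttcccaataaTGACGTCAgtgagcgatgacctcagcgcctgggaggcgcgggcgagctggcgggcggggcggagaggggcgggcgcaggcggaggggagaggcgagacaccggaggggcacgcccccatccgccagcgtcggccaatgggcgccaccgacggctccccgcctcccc
Plk2: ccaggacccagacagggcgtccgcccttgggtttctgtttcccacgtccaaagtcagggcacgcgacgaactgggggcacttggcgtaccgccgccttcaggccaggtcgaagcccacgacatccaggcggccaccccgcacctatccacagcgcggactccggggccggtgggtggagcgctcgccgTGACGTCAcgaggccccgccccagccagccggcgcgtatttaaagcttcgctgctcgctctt
Plk3: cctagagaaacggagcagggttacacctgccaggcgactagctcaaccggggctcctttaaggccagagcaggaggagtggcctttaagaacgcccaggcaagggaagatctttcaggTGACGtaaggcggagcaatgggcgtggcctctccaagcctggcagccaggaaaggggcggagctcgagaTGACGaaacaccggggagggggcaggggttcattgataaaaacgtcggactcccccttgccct

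The Cdkn1a window lies at chr17:29090729-29090978 on the + strand, belongs to 1 of the 2 Cdkn1a windows listed, and holds its match 51 to 32 bases before the start. The Btg2 window is chr1:134079156-134079405 on the - strand, with TGACGTCA at 166 to 159 bases. The Plk2 window is chr13:110394794-110395043 on the + strand, with TGACGTCA at 62 to 55 bases. The Plk3 window is chr4:117133964-117134213 on the - strand, with TGACG at 132 to 128 and at 63 to 59 bases. All 4 windows are upstream of the first exon by construction.

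The motifs were searched on both strands. The p53 consensus site was taken as 2 decamers with no gap, at most 1 mismatch over both and none in their cores, and 0.0457% of 32841 mouse promoter windows held it. Of the 33 members 25 had a window, and of the 26 tested members 19 had one, in which the site was matched in Cdkn1a and in Rps27l, whose match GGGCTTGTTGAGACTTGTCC lay 117 to 98 bases before 1 of its starts. An exact single p53 decamer was found in 9 of those 19 genes (Aen, Ccng1, Cdkn1a, Ei24, Mdm2, Polk, Ppm1d, Rps27l and Sesn1) and in 8.2% of all 27018 genes with a window. TGACGTCA was found in 3 of the 19, namely Btg2, Plk2 and Ppm1d, and in 1.77% of all genes. TGACG, which also counts every TGACGTCA, was found in 8 of the 19 and in 19.8% of all genes. A match is a description of the letters and not evidence of binding.

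Levels are log2 of the deposited intensity. The deposited intensities had medians of 10.5 to 11.6 and 75th percentiles of 523 to 556. The deposited values were quantile-normalized, which makes arrays alike, so these figures do not measure the depth of raw signal. RNA integrity, read as the excess of the Actb 3′ over the 5′ control signal in log2, was 0.60 to 0.67 at 0.5 h and 0.66 to 0.77 at 24 h. Beta-cell markers were high on every array, with Ins2 at 15.60 to 15.79 and Pdx1 at 13.22 to 13.43, while Ucn3, a marker of mature beta cells, was below log2 4 throughout. The probe set for Glp1r, the receptor of exendin-4, read 2.04 to 2.08 on all arrays, the background floor. For acinar and duct cells 9 markers were listed and 4 had a probe set. Of these 1 was tested, Cela1, at 8.95 to 9.60, and 3 were below log2 4 on all arrays. Of the 11 markers listed for fibroblasts, endothelium and leukocytes 10 had a probe set and none was tested, 9 of them being below log2 4 on all arrays.

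Most p53 targets were higher after 24 h than after 0.5 h under every treatment, DMSO included. Of the 26 tested members 17 rose and 1 fell, which is 69.2%, against 23.6% of all genes tested (10.6% higher and 13.0% lower; limma, adjusted p of 0.05 or less, 4 arrays at each time with treatment in the model). The median difference over the members was 0.30 on the log2 scale, and over all genes it was -0.00. The 4 arrays at 24 h all lay above the 4 at 0.5 h for 16 of 26 members, or 61.5%, against 10.4% of all genes, and no member had them all below, as 12.5% of all genes did. For 12 members, 46.2%, they lay above all 12 earlier arrays, against 2.74% of all genes. Eda2r is in these counts and in the median, but it passed the filter through its 24 h arrays alone and could only rise. Of the 25 members at log2 4 or more on every array 16 rose and 1 fell, against 10.5% and 13.2% of the 10326 genes measured so, and 15 and 11 members had 24 h arrays above the 0.5 h and above all earlier arrays, against 10.4% and 2.69%. Whether the arrays stem from separate cultures is not in the labels, and p-values then describe the spread among these arrays alone, which may be technical. In RNA from whole cultures, more cells that express a gene and more RNA per cell cannot be told apart.

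**Figure D1:**
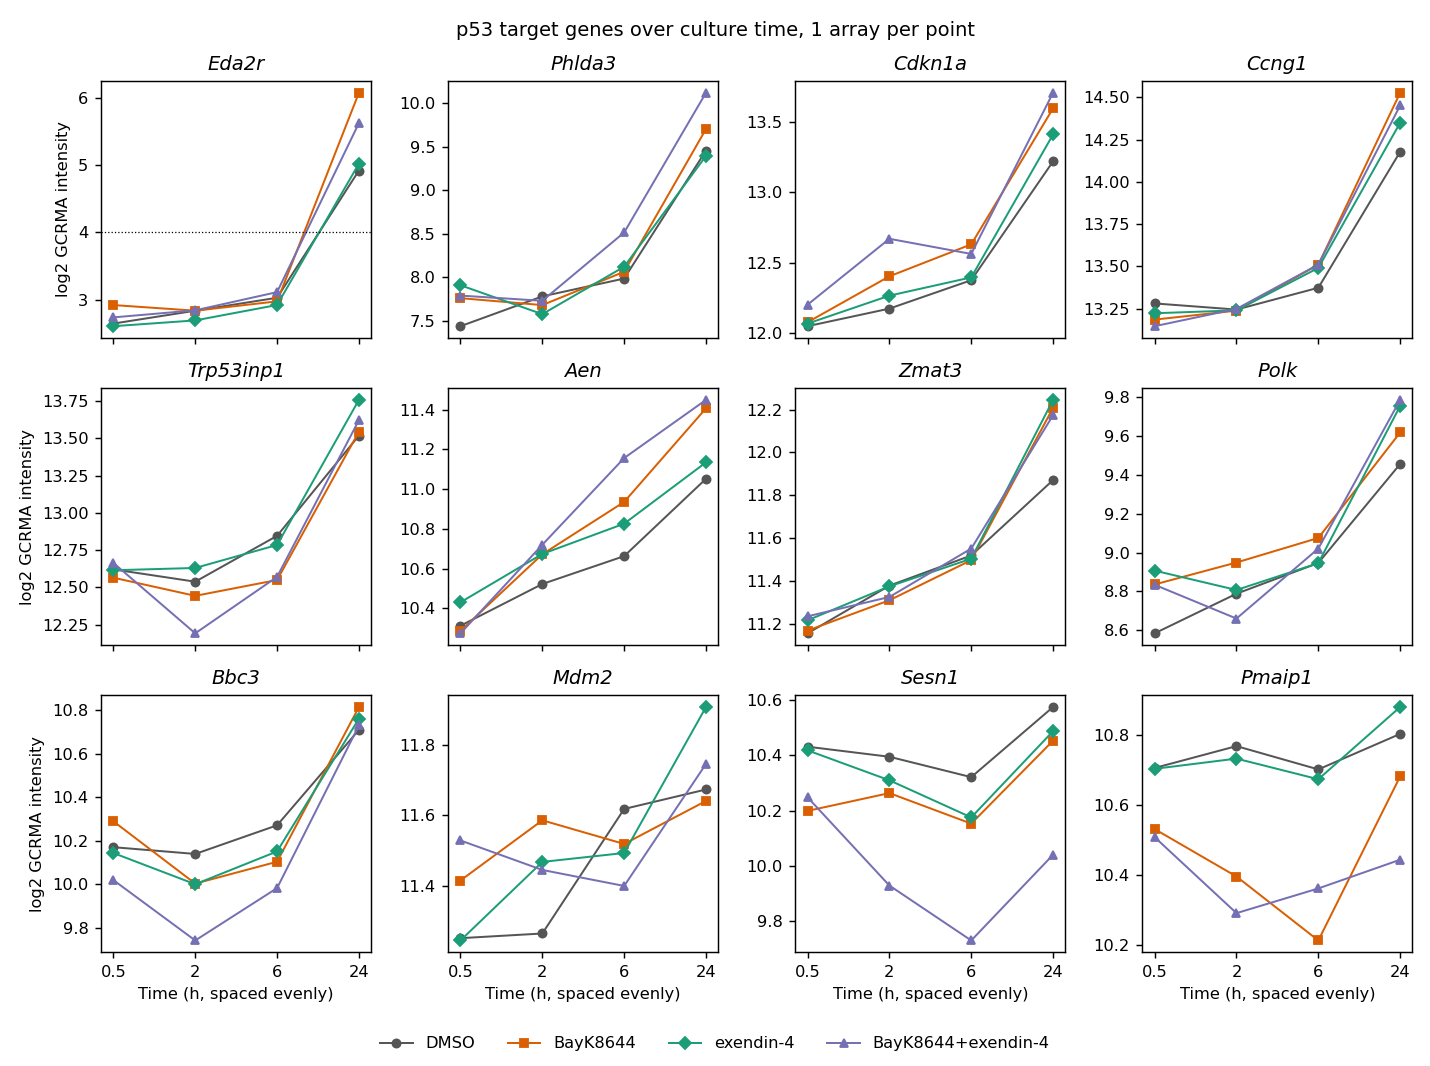
Log2 intensity (y axis) of 12 members against time in hours (x axis, spaced evenly), 1 array per point, with a line for each of the 4 treatments and a dotted line at log2 4 in the Eda2r panel. Cdkn1a, Ccng1, Phlda3, Eda2r, Zmat3, Trp53inp1, Polk, Bbc3 and Mdm2 stand highest at 24 h in all treatments, while Sesn1 and Pmaip1 separate by treatment instead.

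The cell cycle arrest genes were led by Cdkn1a. Its levels at 0.5, 2, 6 and 24 h were 12.05, 12.17, 12.38 and 13.22 with DMSO, and 12.08, 12.40, 12.63 and 13.60 with BayK8644. They were 12.07, 12.27, 12.40 and 13.41 with exendin-4, and 12.20, 12.67, 12.56 and 13.71 with both agents. The lowest 24 h array, that of DMSO, stood above every earlier array. The rise from 0.5 to 24 h was 1.39 ± 0.06 (limma's SE), or 2.61-fold, with an adjusted p of 2.97e-08, and 0.39 of it was present at 6 h. A further Cdkn1a probe set gave 1.44 and passed as well.

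Ccng1 encodes cyclin G1, a p53 target that takes part in feedback on p53 through Mdm2. It read 13.28, 13.25, 13.37 and 14.18 with DMSO and 13.19, 13.24, 13.51 and 14.53 with BayK8644 at the 4 times. With exendin-4 it read 13.22, 13.24, 13.49 and 14.35, and with both agents 13.15, 13.25, 13.51 and 14.45. The 4 treatments lay between 13.24 and 13.25 at 2 h, and all stood highest at 24 h. The rise was 1.17 ± 0.06, or 2.25-fold (limma, adjusted p 6.28e-08). Plk2, a polo-like kinase that is also an early response gene, rose by 0.34 ± 0.06 (adjusted p 0.00109), while Plk3 (0.10) and Btg2 (-0.12) did not pass.

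Of the apoptosis genes 8 of 9 tested members were up and 0 down, with a median of 0.60, where 10.6% of all genes rose. Eda2r, which could only rise, is among the 8 and is in the median. Eda2r, a death-domain-free receptor of the TNF receptor family, was below log2 4 on every array of the first 3 times and above it on all 4 at 24 h. It read 2.64, 2.83, 3.03 and 4.92 with DMSO, 2.92, 2.83, 2.97 and 6.08 with BayK8644, 2.60, 2.69, 2.92 and 5.03 with exendin-4, and 2.73, 2.84, 3.11 and 5.63 with both. Because the early values lie at the background floor, the change is a bound: at least 2.67-fold, from the 24 h mean of 5.42 against the level of 4 (measured mean at 0.5 h 2.72). The filter admitted Eda2r through the 24 h arrays alone, so this difference is a description and no p-value for it is given.

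Phlda3, an inhibitor of Akt signalling, went from 7.72 ± 0.20 at 0.5 h to 9.67 ± 0.33 at 24 h (mean ± SD, n = 4). Its 24 h array was higher than its 0.5 h array in each treatment, by 2.02 with DMSO, 1.95 with BayK8644, 1.49 with exendin-4 and 2.33 with both. The rise of 1.95 ± 0.12 was 3.85-fold (limma, adjusted p 1.55e-07). Among 10380 genes at log2 4 or more on all arrays of both times, only 1 rose by more than Phlda3, which ranked 2, while Cdkn1a ranked 9 and Ccng1 21.

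Trp53inp1, which promotes autophagy and cell death, rose by 0.99 ± 0.07 (1.99-fold, adjusted p 4.34e-07). Aen, an exonuclease of apoptotic DNA breakdown, rose by 0.94 ± 0.08 (1.91-fold, adjusted p 1.82e-06), and 0.57 of that was present at 6 h. Bbc3, a BH3-only activator of apoptosis, rose by 0.60 ± 0.06 (1.51-fold, adjusted p 1.26e-05), with means of 10.16, 9.97, 10.13 and 10.75 at the 4 times. By their means, Aen was higher at each later time, whereas Bbc3 and Trp53inp1 stood within 0.20 of their 0.5 h level until 6 h.

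The smaller rises in this group were those of Perp, a membrane protein of desmosomes (0.27 ± 0.05, adjusted p 0.0016), Ei24 (0.26 ± 0.05, adjusted p 0.00224) and Apaf1, the scaffold of the apoptosome (0.25 ± 0.06, adjusted p 0.00946). A further Apaf1 probe set gave -0.07, and with the mean of both the gene did not pass. Pmaip1, which encodes the BH3-only protein Noxa, differed by 0.09 and did not pass.

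Of the regulators of p53 among the members, Mdm2 and Mdm4 rose and Ppm1d fell. Mdm2 read 11.25, 11.27, 11.62 and 11.67 with DMSO and 11.42, 11.59, 11.52 and 11.64 with BayK8644. With exendin-4 it read 11.25, 11.47, 11.49 and 11.91, and with both 11.53, 11.45, 11.40 and 11.75. The 24 h arrays stood highest, but by little over the 6 h DMSO array. The rise was 0.38 ± 0.08, or 1.30-fold (limma, adjusted p 0.00443). A further Mdm2 probe set gave 0.17 and did not pass, and with the mean of the Mdm2 probe sets the adjusted p was 0.298. Mdm4, an Mdm2 relative that blocks p53 activity, rose by 0.36 ± 0.10 (adjusted p 0.0162). Its 24 h minus 0.5 h difference was 0.07 with DMSO, 0.41 with BayK8644, 0.80 with exendin-4 and 0.16 with both. Further Mdm4 probe sets gave 0.01 and 0.26, and 1 of them passed.

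Ppm1d, the phosphatase Wip1 that switches p53 signalling off, differed by -0.19 ± 0.06 (adjusted p 0.0305). Its 24 h minus 0.5 h difference was 0.00 with DMSO and -0.23, -0.25 and -0.28 with BayK8644, exendin-4 and both, so the DMSO arrays did not share the fall. Whether the treatments differ in this was not tested.

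In DNA repair and nucleotide supply 2 of 5 members rose, against 10.6% of all genes, and the median was 0.02. Polk, a translesion DNA polymerase, went from 8.79 ± 0.14 to 9.66 ± 0.15 (mean ± SD, n = 4), a rise of 0.86 ± 0.08 (1.82-fold, limma adjusted p 3.06e-06). Ercc5, a nuclease of nucleotide excision repair, rose by 0.56 ± 0.09 (adjusted p 0.0005). The damage sensors Ddb2 (-0.07) and Xpc (0.02) and the ribonucleotide reductase subunit Rrm2b (-0.04) did not pass, so the repair members were split.

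Among stress and other genes 2 of 4 tested members rose, against 10.6% of all genes. Zmat3, a zinc finger RNA-binding protein, went from 11.20 ± 0.04 to 12.12 ± 0.17 (mean ± SD, n = 4), a rise of 0.93 ± 0.06 (1.90-fold, adjusted p 2.01e-07). Rps27l, a relative of a ribosomal protein, rose by 0.25 ± 0.06 (adjusted p 0.0112). The sestrins, which restrain mTORC1, did not pass, with 0.06 for Sesn1 and 0.25 for Sesn2.

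**Figure D2:**
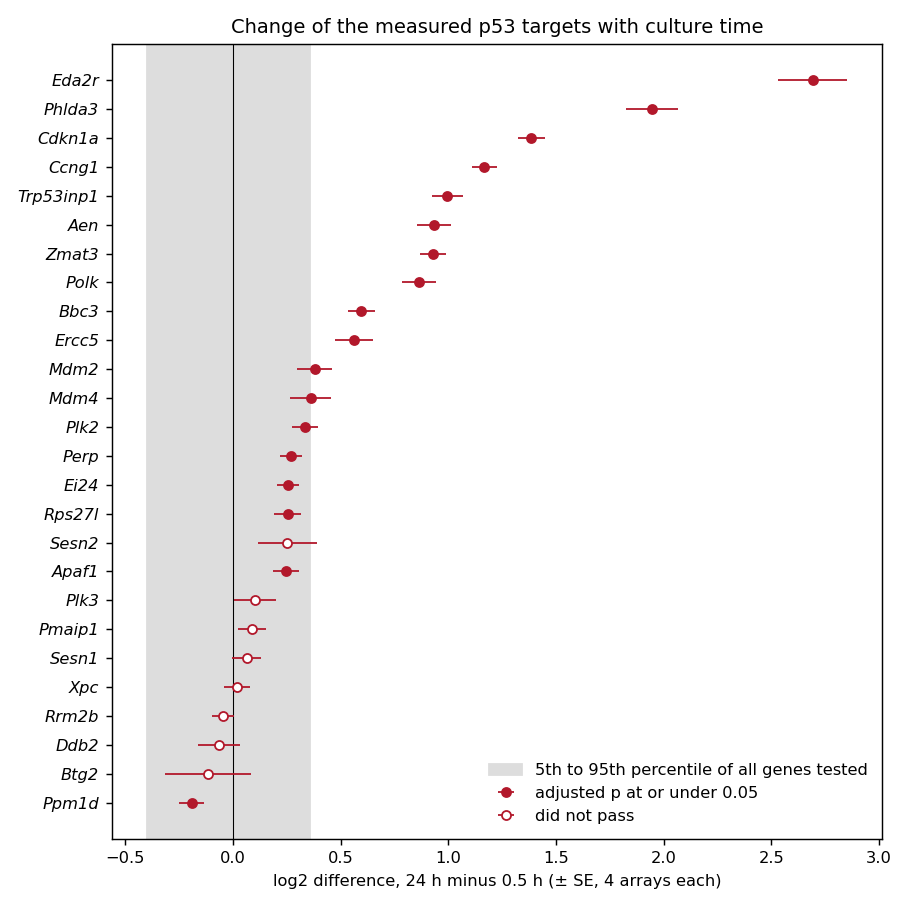
Log2 difference between the 24 h and 0.5 h arrays (x axis, 4 arrays each) for the 26 tested members, with bars of 1 SE, filled points for adjusted p of 0.05 or less and a grey band from the 5th to the 95th percentile of all genes, -0.40 to 0.36. Eda2r (whose 0.5 h arrays lie at the floor), Phlda3, Cdkn1a and Ccng1 lie furthest to the right and Ppm1d furthest to the left.

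The rise of the leading genes was present on the arrays without BayK8644. With both BayK8644 treatments left out, an alternative chosen after the data were seen, 12 of 26 members passed against 4.66% of all genes. These were Aen, Bbc3, Btg2, Ccng1, Cdkn1a, Eda2r, Ercc5, Mdm2, Phlda3, Polk, Trp53inp1 and Zmat3. Eda2r passed the filter through its 24 h arrays alone and could only rise, so its place among them is no support. In the DMSO arrays alone, the 24 h minus 0.5 h difference was 1.17 for Cdkn1a, 0.90 for Ccng1, 0.71 for Zmat3 and 0.87 for Polk. Of the 7 markers listed for other islet cells (alpha, delta and PP cells), 4 were tested. With time 2 rose, Sst by 1.20 and Ttr by 0.15, and 0 passed as lower. Gcg read lower, with a mean of 9.63 at 0.5 h and 9.37 at 24 h. Hhex and Ppy were at the floor. The summed intensity of the alpha, delta and PP cell markers, most of it from Ttr, was 82159 to 84223 at 0.5 h and 84253 to 100068 at 24 h. That of the beta-cell markers was 145748 to 153186 at 0.5 h and 152293 to 163790 at 24 h. Sst read 5.12 at 0.5 h and 5.14 at 24 h with DMSO, and 5.12 and 5.13 with exendin-4. With BayK8644 and with both agents it read 7.37 and 7.61 at 24 h. The part of other islet cells in the rise was not tested.

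The other genes of the pathway were read from 3 further lists. Of 42 further p53-induced genes 33 were tested, and 12 rose and 3 fell with a median of 0.13. The largest rises were those of Dcxr (1.60), a xylulose reductase, Sulf2 (1.27), a heparan sulfatase, Psrc1 (0.95), a spindle protein, and Pidd1 (0.83), a death-domain protein. Set against 10.6% of all genes higher and 13.0% lower, 12 of 33 is above and 3 of 33 near the background. Of 35 regulators of p53, 30 were tested, 3 rose and 7 fell, and the median was -0.08. The rises were near the background of 10.6%, and the falls, 7 of 30, were above that of 13.0%. Among these the checkpoint kinases Chek1 (-0.57) and Chek2 (-0.57) fell, as did Trp53bp2 (-0.46), which encodes the p53-binding protein ASPP2, while the methyltransferase Smyd2 rose by 0.40.

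Genes lowered through p21 and DREAM moved the opposite way to Cdkn1a. Of 24 listed, 22 were tested, 21 fell (against 13.0% of all genes) and 0 rose, all 22 differences were negative, and the median was -0.74. Mybl2 (-1.09) and Foxm1 (-0.97), transcription factors of S phase and mitosis, and Aurkb (-1.06) and Kif23 (-0.99), which act in cytokinesis, fell most. The share of cells in division was not measured.

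**Figure D3:**
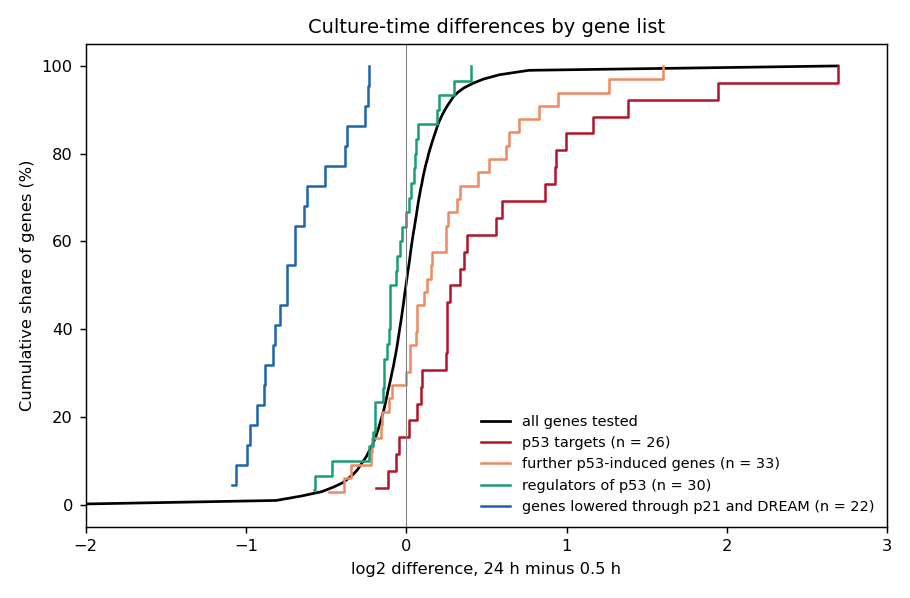
Cumulative share of genes in percent (y axis) at or below each log2 difference between 24 h and 0.5 h (x axis), for all genes tested and 4 lists. By their medians, the p53 targets (0.30) and the further induced genes (0.13) lie right of all genes and the regulators (-0.08) slightly left of them. The p21 and DREAM genes (median -0.74) lie wholly left of 0.

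Against this rise with time, the agents changed few members. BayK8644 was compared with its absence at each time, 2 arrays with it against 2 without it, with exendin-4 in the model. Where 2 arrays lie wholly above or below 2 others, this is a description, as its share over all genes was not counted. BayK8644 raised 1 of 26 members at 0.5 h, 2 at 2 h, 1 at 6 h and 3 at 24 h, Eda2r among the last, and it lowered none. These are 3.85%, 7.69%, 3.85% and 11.5% of the members. Of all genes, 0.217%, 1.15%, 1.71% and 2.99% were higher at these times and 0.0%, 0.481%, 0.773% and 2.12% lower, or 0.217%, 1.63%, 2.48% and 5.11% in either direction. The unadjusted p was under 0.05 for 2, 7, 8 and 9 members at these times, and for 2.05%, 12%, 14.9% and 22.5% of all genes. Btg2 passed first, then Plk3 and Cdkn1a, and last Cdkn1a, Eda2r and Aen. Btg2, Plk2 and Plk3 are also known as early response genes that calcium and cAMP induce, apart from p53.

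Btg2, an antiproliferative early response gene whose printed promoter holds TGACGTCA, was higher with BayK8644 at 0.5 h. Its 0.5 h levels were 11.45 with BayK8644 and 11.90 with both agents, against 10.55 with DMSO and 10.81 with exendin-4. At 2, 6 and 24 h it read 10.47, 10.58 and 11.06 with DMSO, 10.58, 10.60 and 10.98 with BayK8644, 10.68, 10.67 and 11.23 with exendin-4, and 10.47, 10.39 and 10.98 with both. The 2 arrays with BayK8644 stood well above the other two at 0.5 h, and the treatments lay close together afterwards. The effect at 0.5 h was 0.998 ± 0.11, or 2.00-fold (limma, adjusted p 0.00458), and a further probe set gave 1.37. Its difference from the effect at 24 h was -1.17 ± 0.15 (adjusted p 0.00917), the 1 member to pass that test, as 1.02% of all genes did, 0.415% of all genes with a lower effect at 24 h. Both calls were lost when any 1 of the 0.5 h arrays was left out, with adjusted p up to 0.357 and 0.149.

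Plk3, a stress-responsive polo-like kinase, followed at 2 and 6 h. At 0.5, 2, 6 and 24 h it read 10.60, 10.95, 10.66 and 10.73 with DMSO, and 10.63, 11.56, 11.19 and 10.69 with BayK8644. With exendin-4 it read 10.69, 11.06, 10.68 and 10.73, and with both 10.80, 11.48, 11.03 and 10.97. Both BayK8644 arrays exceeded both others at 2 h and at 6 h, and all treatments were higher at 2 h than at 0.5 h. The effect was 0.52 ± 0.09 at 2 h (1.43-fold, limma adjusted p 0.0261) and 0.44 ± 0.09 at 6 h (1.36-fold, adjusted p 0.0404), and leaving out any 1 array of the first 3 times ended both calls.

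Cdkn1a passed at 2 h (0.32 ± 0.06, 1.25-fold, limma adjusted p 0.0491), a call that also ended without any 1 array of the first 3 times. A further Cdkn1a probe set gave 0.21 and did not pass, and with the mean of probe sets the call was lost. The Cdkn1a levels with BayK8644, with and without exendin-4, were above both levels without it at each time, by the values given above.

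At 24 h Eda2r, Cdkn1a and Aen passed, all of which had risen with time as well. Eda2r was 6.08 and 5.63 with BayK8644 alone and with both, against 4.92 with DMSO and 5.03 with exendin-4. The effect was 0.88 ± 0.16 (1.84-fold, limma adjusted p 0.0177). The error was pooled over times, and the SD of Eda2r was 0.14, 0.07 and 0.08 at the floor at 0.5, 2 and 6 h, against 0.54 at 24 h. That p-value thus does not measure the spread among the 24 h arrays. Aen read 10.31, 10.52, 10.66 and 11.05 with DMSO, 10.29, 10.67, 10.94 and 11.41 with BayK8644, 10.43, 10.67, 10.83 and 11.13 with exendin-4, and 10.27, 10.72, 11.16 and 11.45 with both. Its effect at 24 h was 0.33 ± 0.07 (1.26-fold, adjusted p 0.0307), and further Aen probe sets gave 0.31 and 0.91 and did not pass. For Cdkn1a at 24 h a further probe set gave 0.72 and did not pass, and with the mean of probe sets the call was lost. The 24 h arrays with and without BayK8644 did not overlap for Eda2r, Cdkn1a and Aen. For genes already called, 2 arrays against 2, this adds no support. The calls were lost without 1 array: for Eda2r when the 24 h array of either DMSO or BayK8644 was omitted (adjusted p up to 0.057), for Cdkn1a without any 1 of the 24 h arrays (up to 0.090), and for Aen without any 1 array of 0.5, 6 or 24 h (up to 0.131).

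The leading time-dependent genes were not all raised by BayK8644. At 24 h Ccng1 differed by 0.23 (95% interval 0.08 to 0.37, adjusted p 0.081) and Phlda3 by 0.49 (0.12 to 0.85, adjusted p 0.116), neither passing limma's threshold. Mdm2 (-0.10), Zmat3 (0.13) and Trp53inp1 (-0.05) differed by less. Beside these 24 h results, the islet hormone Sst was higher with BayK8644 by 2.36 and Gcg by 0.56, both passing. The summed intensity of the alpha, delta and PP cell markers was 95377 to 100068 on the 24 h arrays with BayK8644 and 84253 to 88723 on those without. Most of that sum came from Ttr, which did not pass for BayK8644 at 24 h, and little from Sst and Gcg. The part of such cells in the BayK8644 results was not tested either.

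Elsewhere in the pathway, BayK8644 at 24 h raised 6 and lowered 3 of the 33 further induced genes, with a median of 0.05. Of all genes 2.99% were higher and 2.12% lower there. Rprm (0.99), a mediator of arrest in G2, Dcxr (0.80) and Gadd45b (0.71) rose, while Gadd45a fell by 1.07, the most in that list. Among the regulators Trp53bp2 was lowered at 2, 6 and 24 h, by 0.51, 0.45 and 0.68, and no other passed at 24 h. Of the 22 p21 and DREAM genes 4 fell and 0 rose, with a median of -0.18, and they were E2f1 (-0.61), Aurkb (-0.49), Prc1 (-0.35) and Cdc20 (-0.30).

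**Figure D4:**
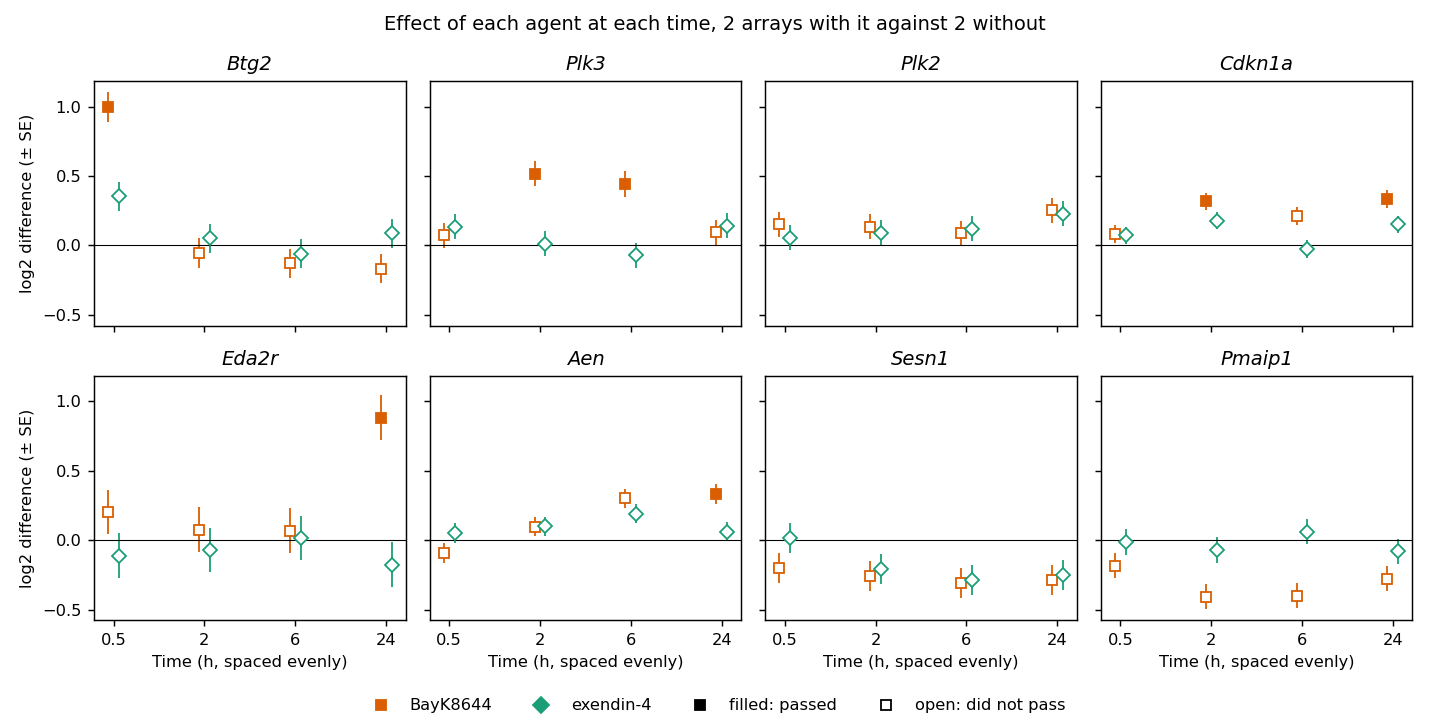
Log2 effect with 1 SE (y axis) of BayK8644 (squares) and exendin-4 (diamonds) at each time in hours (x axis, spaced evenly) for the 8 members that passed in a comparison of the agents, 2 arrays with the agent against 2 without it. Filled squares show Btg2 at 0.5 h (0.998), Plk3 at 2 and 6 h (0.52 and 0.44), Cdkn1a at 2 and 24 h (0.32 and 0.34), Eda2r (0.88) and Aen (0.33) at 24 h, and no exendin-4 effect is filled.

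Exendin-4 changed no tested member at any time. In limma 0 of 26 passed at 0.5, 2, 6 and 24 h, as did 0.00943%, 0.0189%, 0.0% and 0.0% of all genes. At an unadjusted p under 0.05 there were 2, 2, 2 and 3 members, against 1.89%, 5.55%, 6.97% and 5.91% of all genes. The effect on Btg2 at 0.5 h was 0.35 ± 0.11 (95% interval 0.11 to 0.59, adjusted p 1). Over the 4 times together, exendin-4 against DMSO gave 0 members and 0.0% of all genes (unadjusted, 1 member and 6.58%), and Cdkn1a differed by 0.08 (-0.05 to 0.21). These intervals leave room for modest effects, so absence was not shown.

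Over the 4 times together BayK8644 against DMSO changed 0 of 26 members by limma, against 0.839% of all genes. At an unadjusted p under 0.05 there were 9 members, against 14.9% of all genes. The smallest adjusted p was 0.0598, for Pmaip1, and without the 0.5 h arrays 3 members passed. BayK8644 against exendin-4 gave 0 members against 0.754% of all genes, and unadjusted 6 members against 13.5%.

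Both agents together against DMSO changed 4 of 26 members, 15.4%, 2 in each direction, against 6.97% of all genes (4.38% higher and 2.59% lower). Cdkn1a was higher by 0.33 ± 0.06 (1.26-fold, limma adjusted p 0.0129) and Plk2 by 0.28 ± 0.06 (1.21-fold, adjusted p 0.0196). A further Cdkn1a probe set gave 0.48 and did not pass. Plk2 read 10.83, 10.73, 10.97 and 10.998 with DMSO, 10.94, 10.89, 10.87 and 11.27 with BayK8644, 10.85, 10.85, 10.90 and 11.25 with exendin-4, and 11.04, 10.95, 11.18 and 11.48 with both. The array with both agents was the highest of the 4 treatments for Plk2 at every time.

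Sesn1 and Pmaip1 were lower with both agents. Sesn1 read 10.43, 10.40, 10.32 and 10.58 with DMSO, 10.20, 10.26, 10.15 and 10.45 with BayK8644, 10.42, 10.31, 10.18 and 10.49 with exendin-4, and 10.25, 9.93, 9.73 and 10.04 with both. From 2 h on the arrays with both agents were the lowest, and DMSO was the highest at every time. The difference was -0.44 ± 0.07 (limma, adjusted p 0.0044), further Sesn1 probe sets gave -0.43 and -0.39, and the call held without any 1 of the 16 arrays but not without all arrays of 2 h, without all of 6 h or with time left out of the model (adjusted p up to 0.120). In the fit by time, the effects of each agent, present against absent, were negative from 2 h. They were -0.26, -0.31 and -0.28 for BayK8644 and -0.21, -0.28 and -0.25 for exendin-4, and none passed. Each draws on the array with both agents at that time, so none is the effect of an agent alone.

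Pmaip1 read 10.71, 10.77, 10.70 and 10.80 with DMSO, 10.53, 10.40, 10.21 and 10.68 with BayK8644, 10.70, 10.73, 10.67 and 10.88 with exendin-4, and 10.51, 10.29, 10.36 and 10.44 with both. At each time both arrays with BayK8644 lay below both without it. The difference of both agents from DMSO was -0.34 ± 0.06 (limma, adjusted p 0.0136), while the BayK8644 effects at single times, -0.18, -0.41, -0.40 and -0.28, did not pass (adjusted p 1, 0.0678, 0.0569 and 0.111). Neither Sesn1 nor Pmaip1 had passed for culture time, and under both agents they moved in the direction opposite to Cdkn1a.

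Of these 4 calls, the Sesn1 call alone held without any single array. Without the DMSO array of 2 h or without the 24 h array of both agents 1 member passed, without the 2 h array of both agents 2 did, and without the 24 h exendin-4 array or the 0.5 h array of both agents 8 did. No member departed from additivity of the agents (0 of 26 in limma, as 0.0% of all genes, and unadjusted 2 members against 6.69% of all genes). For Sesn1 the departure was -0.20 (95% interval -0.40 to 0.01), and for Cdkn1a 0.03 (-0.16 to 0.21).

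Of the other pathway genes, against 4.38% of all genes higher and 2.59% lower, both agents together raised 5 and lowered 1 of 33 further induced genes, lowered 2 and raised 0 of 30 regulators (Trp53bp2 by 0.54 and Trim24 by 0.22), and lowered 4 and raised 0 of 22 p21 and DREAM genes. The last were Aurkb (-0.37), Plk1 (-0.32), Prc1 (-0.27) and Cdc20 (-0.19).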

How the data were processed

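The 16 Affymetrix arrays have 1 colour and 45101 probe sets each. The authors deposited an intensity per probe set on a linear scale. They used GCRMA, as the submitters' processing notes say, with no version given in the sources used here. GCRMA corrects background by probe sequence and quantile-normalizes arrays, so a common shift of all genes would be removed. Log2 of the intensity was taken with no pseudocount. The platform annotation gave the names: 34945 probe sets had 1 symbol, 932 several and 9224 none, and 64 control probe sets were left out. A probe set passed with log2 4 (intensity 16) on at least 2 arrays, and the highest-mean probe set stood for a gene, which left 10610 genes. Signal below that level is near the floor, and the number of arrays limits the precision.

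Models were fitted with limma 3.58.1 in R 4.3.3 (lmFit, eBayes with an intensity trend). They were also run on simulated data in which a gene had the same spread on all arrays. Such data cannot check an error pooled over times of unequal spread. The first model held time and treatment over all arrays (9 residual degrees of freedom), so the 4 times stood in for replicates. The other gave each agent an additive effect at each time (4 residual degrees of freedom), with an error pooled over times, although 39.4% of the residual sum of squares lay at 24 h and 12.1% at 0.5 h. p-values were adjusted over all genes by Benjamini and Hochberg's method, with 0.05 as threshold. Comparisons against DMSO share the DMSO arrays. The members and lists were chosen with earlier results of these data known. Levels on all arrays are given for each member that passed in a comparison of the agents and for Mdm2, Cdkn1a and Ccng1, and of each list at most 4 genes with the largest differences are named per comparison. Alternatives were another filter, the mean of probe sets, no trend, an offset of 16, centred arrays, time left out, a departure from additivity, and each array left out. Promoters came from RefSeq (GRCm38.p6). Trp53, Bax and Gdf15 were not analysed here.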

Additional observations from a re-analysis of the deposited data

Results flagged for a closer look

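A sample was looked at again where 1 of the 4 arrays of a treatment stood apart from the other three by Dixon's test at its 95% level. Of 104 such tests, over 26 members and 4 treatments, 14 passed, and they covered 10 genes. The arrays of a treatment are 4 different times, so such an array is also a different time. The 1 in 20 that the test's level gives for like arrays is therefore no yardstick here. Of the 14, 12 were the 24 h array.

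Eda2r stood apart at 24 h under every treatment, at 4.92 with DMSO, 6.08 with BayK8644, 5.03 with exendin-4 and 5.63 with both. The filter admitted Eda2r through these arrays alone, with its others at the floor, so its flags are a description and no support. Trp53inp1 did so at 24 h with BayK8644 (13.54) and with exendin-4 (13.76). With DMSO the 24 h arrays stood apart for Ccng1 (14.18) and Rps27l (13.66), the ribosomal protein relative.

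With exendin-4 the 24 h array stood apart for Plk2 (11.25), Polk (9.76) and Apaf1 (10.02), although no exendin-4 effect on these genes passed in limma. With both agents Sesn2 stood apart at 24 h (11.58). The remaining pair were 2 h arrays, Ppm1d with DMSO (10.53) and Plk3 with exendin-4 (11.06).

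The BayK8644 effect on Btg2 differed between times by a direct test: it was lower at 24 h than at 0.5 h by a difference of -1.17 (limma). All of these values are levels or differences on the log2 scale.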

How the results depend on the processing

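The labels carry no replicate numbers, so time was the block. With no replicate block (time left out), 0 in place of 4 members passed for both agents against DMSO. Of 740 alternative values for the 30 single-gene results that passed, 617 stayed past the threshold, 123 did not and 0 reversed. The culture count of 18 was 16 to 19 with 1 array left out. Its losses were Mdm2 and Apaf1 with the mean of probe sets, Ppm1d without any 1 of 6 arrays (adjusted p up to 0.101) and without all arrays of 2 h or of 6 h, and Mdm4 without the BayK8644 or exendin-4 array of 0.5 h (up to 0.059). Without both BayK8644 treatments Perp, Ppm1d, Plk2, Ei24, Mdm4, Apaf1 and Rps27l did not pass (up to 0.477). Leaving out 1 array gave 0 to 2 members for BayK8644 against DMSO (main 0), 1 to 8 for both agents (4), 0 to 1 for BayK8644 against exendin-4 (0), 0 to 1, 0 to 3, 0 to 3 and 1 to 3 for BayK8644 at 0.5, 2, 6 and 24 h (1, 2, 1 and 3), and 0 to 1 for its change from 0.5 to 24 h (1). The 3 at 6 h appeared without any 1 of the 24 h arrays. With a filter at log2 6, 1 member passed for BayK8644 against DMSO, 1 against exendin-4 and 2 at 6 h. Without the 0.5 h arrays, 3, 2 and 9 members passed for BayK8644 against DMSO, against exendin-4 and for both agents, and for both agents 0, 0 and 1 passed without those of 2, 6 and 24 h. For BayK8644 at 2 h, 1 passed with no filter, with the mean of probe sets or with centred arrays, and 0 with no trend or with a departure from additivity. At 6 h, 0 passed with no filter, the mean of probe sets, no trend or that departure. At 24 h, 1 passed with no trend or that departure. The cause of these moves was not tested. The exendin-4 counts and the departure from additivity stayed at 0 under all alternatives run. Eda2r could not be fitted with the filter at log2 6. Signal limits Eda2r before 24 h and the 4 members below the filter.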
